A study of Mus musculus with 10 samples.

Results

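Apolipoproteins are the proteins that coat lipoprotein particles, and the 10 genes described here are Apoc3, Apoc1, Apoc2, Apoe, Apob, Apoa1, Apoa2, Apoa4, Apod and Clu, out of 24454 genes listed in the count files of a brown adipose tissue (BAT) RNA-Seq experiment. Apoc3 was chosen by its counts in these same libraries, because its mRNA was lower in mice without adipocyte STAT5, so its values are given as a description and not as a test. The other 9 genes were added by name, as apolipoproteins, Clu being also known as apolipoprotein J. Of the 10 genes, 8 stand in the comparison table of 13568 genes, while Apoc2 and Apoa4 had too few counts and were matched to the count files by their RefSeq symbol.

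RNA came from BAT of 2-month-old males on a C57BL/6N background that were fed ad libitum, with 1 library per mouse, 5 control libraries and 5 Stat5Adipoq libraries. In Stat5Adipoq mice the Adipoq-Cre transgene deletes Stat5a and Stat5b in adipocytes, so cells of BAT that do not express the transgene keep both genes. Controls carried the Stat5 floxed alleles without Cre by the methods of the study, and the labels name them wild type. Libraries held 8488129 to 19514904 counts in control mice (median 10710575) and 9401827 to 15686868 counts in Stat5Adipoq mice (median 11671635). Stat5a ranged from 86.9 to 130.4 CPM (counts per 1000000 counts of the library) in control and from 15.8 to 20.7 CPM in Stat5Adipoq libraries, and Stat5b from 76.6 to 91.9 and from 21.04 to 22.9 CPM. The summed level of 10 brown adipocyte genes, led by Ucp1, Fabp4 and Cidea, was 18810 to 29880 CPM in control and 20650 to 26030 CPM in Stat5Adipoq BAT, and that of 8 endothelial genes, led by Kdr, Cdh5 and Eng, was 877 to 989 and 880.2 to 1098 CPM, with 0 genes of either list called by edgeR or DESeq2 (1 and 2 with an unadjusted p below 0.05). Control replicate 3 stood apart from the other libraries by genes of liver and skeletal muscle, and the fold change of each member is therefore given with and without it where its counts allow.

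Lipoproteins carry triglycerides and cholesterol through the blood. Most of their protein coat is made by the liver and the intestine, where ApoB forms the backbone of very low density lipoproteins and chylomicrons, and ApoA1 and ApoA2 that of high density lipoproteins. ApoC2 activates lipoprotein lipase, the enzyme with which BAT takes up triglyceride fatty acids, while ApoC3 and ApoC1 slow lipolysis and particle uptake, and ApoE, which macrophages and adipocytes also make, is the ligand by which receptors clear remnant particles.

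CPM values are deposited counts scaled by edgeR's TMM method, and a log2 fold change is that of Stat5Adipoq against control, with its standard error (SE) and 95% confidence limits from edgeR's quasi-likelihood fit. Genotypes were compared by this fit across the 13568 genes whose size factor normalized row sum exceeded 45, with p-values adjusted by Benjamini and Hochberg over all of them and a threshold of 0.05. Single genes were compared as well by a two-sided exact permutation test of log2 CPM, whose smallest possible p is 0.0079 for 5 against 5 libraries and 0.016 without control replicate 3.

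Apoc3, which encodes an inhibitor of lipoprotein lipase and of remnant uptake, was scarce in BAT. It lies on the minus strand at chr9:46233050-46235636 of GRCm38, in the cluster with Apoa1, Apoa4 and Apoa5. The 5 control libraries held 25, 28, 47, 42 and 22 counts of Apoc3, and the 5 Stat5Adipoq libraries 10, 17, 5, 10 and 7. Scaled to depth, control replicates 1 to 5 were at 2.39, 2.54, 5.65, 2.12 and 2.01 CPM. Stat5Adipoq replicates 1 to 5 were at 0.838, 1.09, 0.462, 1.10 and 0.559 CPM. Every Stat5Adipoq library lay below every control, and the control that stood highest by a wide gap was replicate 3. Apoc3 averaged 2.94 ± 1.53 CPM in control against 0.810 ± 0.295 CPM in Stat5Adipoq BAT (SD over 5 libraries each), and the log2 fold change was -1.82 (SE 0.36, limits -2.59 and -1.04). Without control replicate 3 the 4 controls averaged 2.27 ± 0.244 CPM (SD) and the log2 fold change was -1.46 (SE 0.26, limits -2.04 and -0.89), still with no overlap. Since Apoc3 was chosen for its fall in these libraries, both pairs of limits are a description and not a test. The lowest of the remaining controls, at 2.01 CPM, stood well above the highest Stat5Adipoq library, at 1.10 CPM. No exon of another gene overlaps those of Apoc3, and 0 of its 660 words of 50 bases occur in transcripts of other genes. Among all genes, the Stat5Adipoq libraries lay below every control for 2.04% with 10 libraries and for 3.24% without control replicate 3, and above every control for 2.35% and 3.59%. In whole tissue, fewer cells of a type and less RNA per cell cannot be told apart, here and for the genes that follow.

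**Figure D1:**
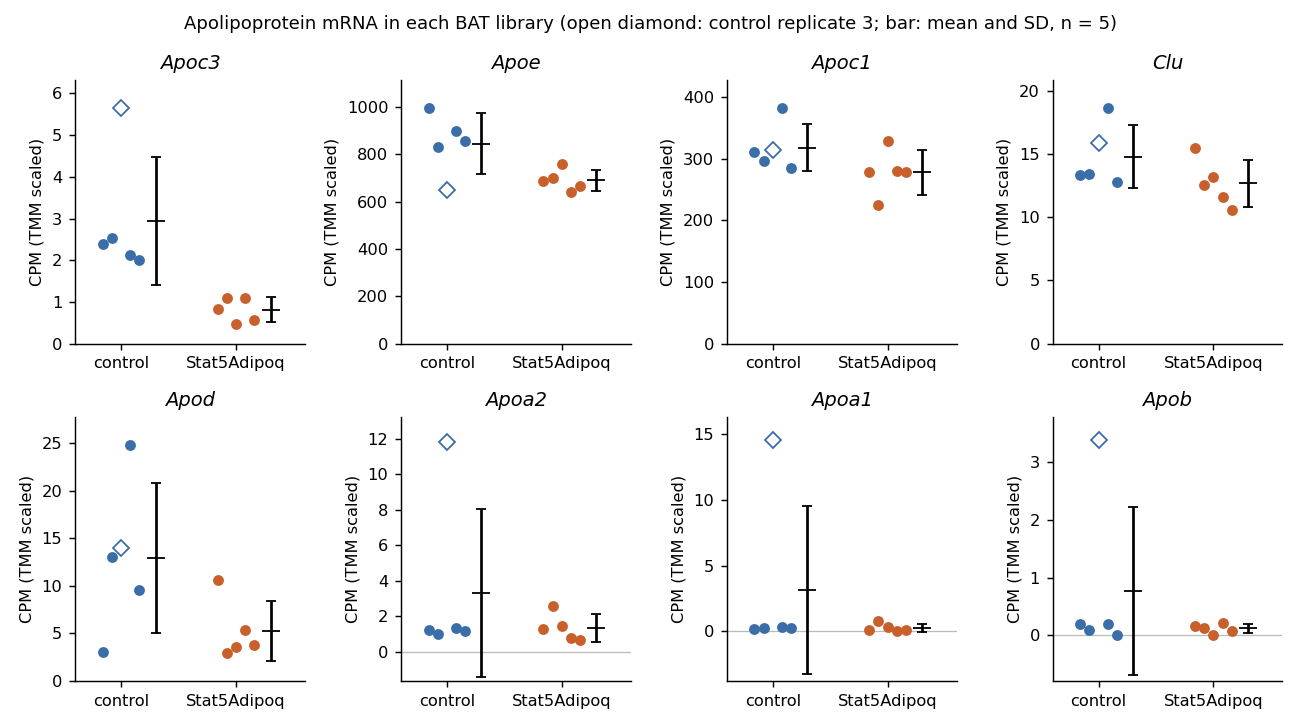
TMM-scaled CPM (linear y axis) of the 8 genes with enough counts, in 5 control and 5 Stat5Adipoq libraries (x axis). Points are single libraries, the open diamond is control replicate 3, and the bar gives mean and SD. Apoc3 is the gene whose Stat5Adipoq libraries all lie below all controls, from 0.462 to 1.10 against 2.01 to 5.65 CPM, while for Apoa1, Apoa2 and Apob the SD of the controls comes from control replicate 3.

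Of the other 9 genes, 7 could be tested with 10 libraries, and 0 were called lower or higher by edgeR's quasi-likelihood test, where 2.71% of all 13568 genes were called (1.31% lower and 1.4% higher). DESeq2's Wald test, which called 4.86% of all genes (2.46% lower and 2.4% higher), also called 0 of them, giving an adjusted p for Apoe, Apoc1, Apod and Clu and none for Apoa1, Apoa2 and Apob. Of the 7, Apoe, Apod and Apoa1 had an unadjusted p below 0.05, as did 15.2% of all genes. Apoa1 and Apob passed the filter on low counts only through control replicate 3, where they were high. Their fold changes and p-values with 10 libraries thus rest on that library and are no test of genotype. The libraries of the genotypes overlapped for all of the 9 genes. Without control replicate 3, 5 of the genes could be tested and 1, Apoe, was called lower, while 3.31% of all 13400 genes then tested were called (1.67% lower and 1.63% higher).

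**Figure D2:**
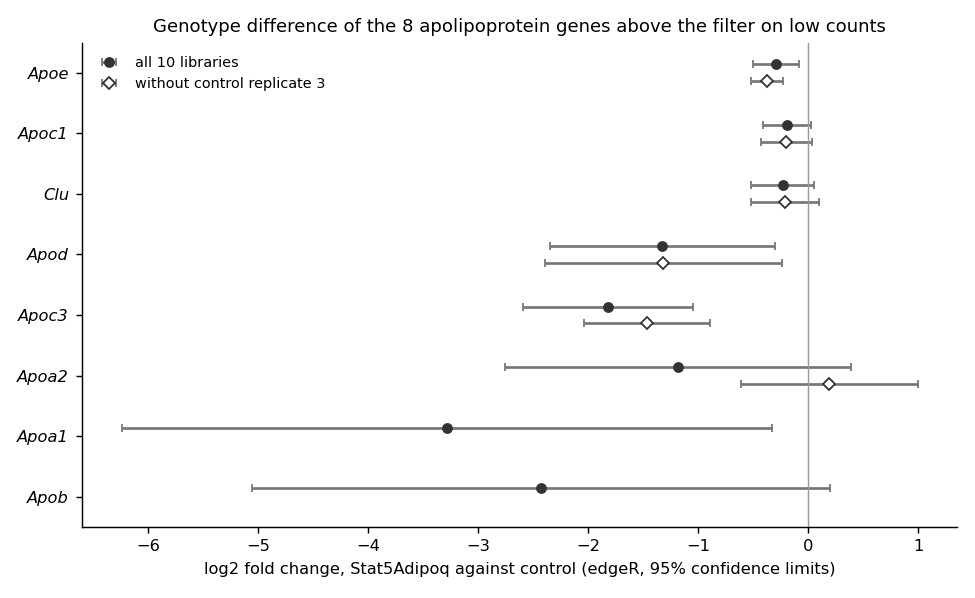
Log2 fold change of Stat5Adipoq against control (x axis) for the 8 genes with enough counts (y axis), with 95% confidence limits from edgeR. Filled circles use all 10 libraries and open diamonds leave out control replicate 3. The limits of Apoc3, which was chosen for its fall, are a description and not a test. Apoc3 moves from -1.82 to -1.46, Apoe from -0.29 to -0.37 with narrower limits, and Apoa2 from -1.19 to 0.19, and Apoa1 and Apob have no second value because they then fall below the filter.

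Apoe, the receptor ligand of remnant particles, had the highest count of the set. It lies on the minus strand at chr7:19696244-19701310, next to Apoc1, Apoc4 and Apoc2. Control replicates 1 to 5 were at 997, 829.9, 648, 899 and 856 CPM, and Stat5Adipoq replicates 1 to 5 at 688, 701, 758, 642 and 666 CPM. The groups overlapped through control replicate 3 alone, the lowest control, which lay among the Stat5Adipoq libraries. Apoe averaged 846 ± 128 CPM in control against 691 ± 43.5 CPM in Stat5Adipoq BAT (SD over 5 libraries each), with a log2 fold change of -0.29 (SE 0.10, limits -0.50 and -0.08). The difference did not pass the threshold across all genes (edgeR, adjusted p = 0.154), and the exact permutation test gave p = 0.040. Without control replicate 3 the 4 controls averaged 895 ± 73.2 CPM (SD), the log2 fold change was -0.37 (SE 0.07, limits -0.52 and -0.23), and Apoe was called lower (edgeR, adjusted p = 0.0107, exact permutation p = 0.016, the smallest possible with 4 against 5). All 5 Stat5Adipoq libraries then lay below all controls, as they did for 3.24% of all genes. The call was made in 2 of 18 alternatives, both of which left out control replicate 3, and the adjusted p ranged from 0.0107 to 0.305. Macrophage genes are given beside Apoe because macrophages express it. Of 15 such markers 14 were tested, 0 were called by edgeR or DESeq2 (1 with an unadjusted p below 0.05) and 12 were below 0, with a median log2 fold change of -0.18. Their summed level was 199 to 257 CPM in control and 163 to 214 CPM in Stat5Adipoq libraries, Lyz2, Csf1r and C1qb having the most counts, and none of the 15 was at 0 in all libraries. The part of macrophages in the Apoe values was not tested.

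Promoter sequence of Apoe and Apod is shown because they are the members, besides Apoc3, with the most counts and, where counts averaged 50 or more, with the most negative log2 fold change. The sequences are the 250 bases before an annotated start, from RefSeq for GRCm38.p6, written 5′ to 3′ on the strand of the gene. The first belongs to the outermost of the Apoe starts in that table, chr7:19699189-19699438 on the minus strand, and the second to Apod, chr16:31314809-31315058 on the minus strand.
Apoe: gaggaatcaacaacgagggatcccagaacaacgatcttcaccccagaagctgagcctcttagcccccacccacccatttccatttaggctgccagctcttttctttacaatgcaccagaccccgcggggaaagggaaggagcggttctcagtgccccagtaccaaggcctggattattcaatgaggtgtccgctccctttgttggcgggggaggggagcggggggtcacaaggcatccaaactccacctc
Apod: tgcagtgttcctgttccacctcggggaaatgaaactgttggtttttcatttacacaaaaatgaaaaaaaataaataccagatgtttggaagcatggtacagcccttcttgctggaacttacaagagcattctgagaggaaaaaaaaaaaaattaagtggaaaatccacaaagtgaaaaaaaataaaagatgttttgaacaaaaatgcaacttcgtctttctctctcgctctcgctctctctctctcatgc
The STAT5 consensus motif TTCNNNGAA, which reads the same on both strands, was searched in the 300 bases around each start, where a match would be in capitals. It was found in 0 of 10 entries of the 7 genes that the table holds, and in 8.3% of all 32851 promoter entries of this length. Apoc3, Apoc1 and Clu have no entry in the table. That these letters are missing from a window of this size says nothing of STAT5 binding elsewhere.

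Apoc1, which encodes a small apolipoprotein that hinders receptor binding of ApoE, lies 3585 bp from Apoe at chr7:19689480-19692659. Its controls were at 311, 297, 315, 383 and 286 CPM and the Stat5Adipoq libraries at 279.5, 225, 329, 280.3 and 279.6 CPM. Stat5Adipoq replicate 3 lay above 4 of the 5 controls, and the other Stat5Adipoq libraries lay below all of them. The means of 318 ± 37.9 and 279 ± 36.6 CPM (SD, n = 5 each) differed by a log2 fold change of -0.19 (SE 0.10, limits -0.41 and 0.03), which did not pass the threshold (edgeR, adjusted p = 0.401, exact permutation p = 0.111). Leaving out control replicate 3 gave -0.20 (edgeR, adjusted p = 0.413). The limits include no change as well as a fall of the size measured for Apoe. The ratio of Apoe to Apoc1 counts, which does not depend on scaling, was 3.20, 2.795, 2.06, 2.35 and 2.997 in control libraries. It was 2.46, 3.12, 2.31, 2.29 and 2.38 in Stat5Adipoq libraries. The ratios overlapped between genotypes, with means of 2.68 ± 0.470 and 2.51 ± 0.345 (SD, n = 5 each, exact permutation p = 0.540, and 0.238 without control replicate 3), and control replicate 3 had the lowest of all.

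Clu encodes clusterin, a secreted chaperone found on high density lipoproteins, and lies at chr14:65968483-65981548. It was at 13.3, 13.4, 15.9, 18.7 and 12.8 CPM in control and at 15.5, 12.6, 13.2, 11.6 and 10.54 CPM in Stat5Adipoq libraries, so that the groups overlapped. Clu averaged 14.8 ± 2.46 CPM in control and 12.7 ± 1.88 CPM in Stat5Adipoq BAT (SD over 5 libraries each). The log2 fold change was -0.23 (SE 0.13, limits -0.51 and 0.06) and did not pass the threshold (edgeR, adjusted p = 0.453, exact permutation p = 0.135), nor did the -0.21 found without control replicate 3 (edgeR, adjusted p = 0.524).

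Apod encodes a lipocalin that binds small hydrophobic ligands, is related in sequence to lipocalins rather than to the other apolipoproteins, and is known from nerve and fibroblasts. It lies on the minus strand at chr16:31296192-31314808. Control libraries were at 3.06, 13.1, 13.95, 24.8 and 9.59 CPM, and Stat5Adipoq libraries at 10.7, 2.89, 3.60, 5.40 and 3.75 CPM. The controls spread from 3.06 to 24.8 CPM, and the groups overlapped through the low control replicate 1 and the high Stat5Adipoq replicate 1. The means were 12.9 ± 7.90 and 5.26 ± 3.15 CPM (SD, n = 5 each) and the log2 fold change -1.33 (SE 0.47, limits -2.35 and -0.30), which did not pass the threshold (edgeR, adjusted p = 0.189, exact permutation p = 0.0952). It was -1.32 without control replicate 3, and between -1.77 and -0.92 over the libraries left out, with an adjusted p of 0.0639 to 0.384 over all alternatives. Genes of Schwann cells and fibroblasts varied beside it. The summed level of 12 Schwann cell genes was 172, 354, 245, 531 and 254 CPM in control replicates 1 to 5 and 344, 278, 234, 249.0 and 229 CPM in Stat5Adipoq replicates 1 to 5. That of 11 fibroblast genes was 2163, 2797, 2746, 3601 and 2767 CPM and 3639, 2169, 2102, 2127 and 2528 CPM. In both lists, as for Apod, replicate 4 was the highest control, replicate 1 the lowest control, and replicate 1 the highest Stat5Adipoq library. All 12 Schwann cell genes were tested, S100b was called higher (log2 fold change 1.07, adjusted p = 0.00085) although the other 11 were below 0 (list median -0.73, and -0.89 without control replicate 3), Mbp having the most counts after it, and 7 of the 12 had an unadjusted p below 0.05. S100b averaged 62.4 ± 11.1 CPM in control and 131 ± 14.3 CPM in Stat5Adipoq libraries (SD, n = 5 each). The sums of this list thus hold its rise together with the lower values of the other 11 genes. Scn7a was called lower by DESeq2 (adjusted p = 0.0058) and by edgeR without control replicate 3 (adjusted p = 0.041). Of the 11 fibroblast genes, led by Gsn, Col3a1 and Col1a2, 0 were called by edgeR or DESeq2 and 0 had an unadjusted p below 0.05. None of these markers was at 0 in all libraries, and their part in the Apod values was not tested.

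Apoa1, Apoa2 and Apob, the structural proteins of high density and very low density lipoproteins, had few counts in BAT outside control replicate 3. Apoa1 (chr9:46228630-46230469, 2581 bp from Apoc3) had 2, 3, 121, 6 and 3 counts in control and 1, 12, 4, 0 and 1 in Stat5Adipoq libraries. Apob (chr12:7977629-8016839) had 2, 1, 28, 4 and 0 counts in control and 2, 2, 0, 2 and 1 in Stat5Adipoq libraries. Both were thus at a few counts in all libraries except control replicate 3 and, for Apoa1, Stat5Adipoq replicate 2. With 10 libraries their log2 fold changes were -3.29 (SE 1.36) and -2.42 (SE 1.21). Both values rest on control replicate 3, through which alone the genes passed the filter on low counts. They are therefore no test of genotype. Without control replicate 3, Apoa1 summed to 14 counts in 4 control libraries, or an unscaled CPM of 0.272 (exact Clopper-Pearson limits 0.149 and 0.456), and to 18 counts in 5 Stat5Adipoq libraries, or 0.298 CPM (0.177 and 0.471). Apob summed to 7 counts in each genotype, 0.136 CPM (0.0547 and 0.280) and 0.116 CPM (0.0466 and 0.239). These limits cover counting error only, and no difference in Apoa1 or Apob was detectable at this depth.

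Apoa2 (chr1:171221564-171226379) reached more counts. The control libraries held 13, 11, 98, 27 and 13, and the Stat5Adipoq libraries 15, 40, 16, 7 and 8. In CPM the controls were at 1.25, 0.998, 11.8, 1.37 and 1.19, and the Stat5Adipoq libraries at 1.26, 2.56, 1.48, 0.771 and 0.639. Outside control replicate 3 the highest library was Stat5Adipoq replicate 2, and the groups overlapped. The log2 fold change was -1.19 with 10 libraries (SE 0.72, limits -2.76 and 0.39, edgeR adjusted p = 0.482) and 0.19 without control replicate 3 (SE 0.37, limits -0.61 and 0.997, edgeR adjusted p = 0.866), so its sign turned on 1 library.

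Apoc2 and Apoa4 were near the limit of detection. Apoc2, the activator of lipoprotein lipase at chr7:19671579-19677941, had 1 count in control replicate 3 and 0 in the other 9 libraries. The 0 counts in Stat5Adipoq libraries allow up to 0.0497 CPM at a floor of 3 counts over the group. The count of Apoc2 is uncertain, since exons of Gm44805 on the same strand cover 79.5% of its exon bases and 88.2% of its words of 50 bases occur there too, so that reads from most of the transcript may not have been assigned to 1 gene. Gm44805 itself had 0 counts in all libraries. Apoa4 (chr9:46240844-46243458), an apolipoprotein of intestinal particles, had 2 counts in control replicate 3, 1 in control replicate 5 and 0 in the other 8 libraries. Genes on the opposite strand, Gm47528 and Gm10680, overlap 69.8% of its exon bases.

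Genes of liver were high in control replicate 3. Of 28 liver markers 25 were highest in that library, and none was at 0 in all libraries. The sum over the list was 353 CPM in control replicate 3, 63.5 to 195 CPM in the other controls and 56.0 to 104 CPM in Stat5Adipoq libraries, and Cyp2e1 (edgeR, adjusted p = 0.037) was called lower and Kng1 (edgeR, adjusted p = 0.0084) higher. Without control replicate 3 the call of Cyp2e1 was lost (edgeR, adjusted p = 0.0527) and that of Kng1 was kept (edgeR, adjusted p = 2.48e-07). Kng1 was at 0 to 5.41 CPM in control and 14.8 to 27.8 CPM in Stat5Adipoq libraries, and Cyp2e1 at 58.8 to 188 and 23.7 to 82.0 CPM. The sum over the 28 markers thus holds lower Cyp2e1 together with higher Kng1 in Stat5Adipoq libraries. Cyp2e1, Kng1 and Itih4 made up most of this sum in the 9 libraries other than control replicate 3, and after their values were seen the sum was taken without them. Each of the 25 genes left was highest in control replicate 3, so this sum holds only the markers that were highest there. Over these 25 genes, the controls were at 4.98, 2.45, 160.5, 2.28 and 2.01 CPM, and the Stat5Adipoq libraries at 4.11, 9.94, 3.79, 3.53 and 2.80 CPM. Apoa1 and Apoa2 were highest in the same libraries as these genes within each genotype, control replicate 3 and Stat5Adipoq replicate 2. Apoc3 was highest in control replicate 3 as well, and in Stat5Adipoq BAT it was highest in replicate 4, with replicate 2 next. The ratio of Apoc3 to Apoa1 counts was 12.5, 9.33, 0.388, 7.0 and 7.33 in control libraries and 10, 1.42, 1.25 and 7.0 in Stat5Adipoq replicates 1, 2, 3 and 5, Apoa1 being at 0 in replicate 4. Control replicate 3 was the library with more counts of Apoa1 than of Apoc3. Skeletal muscle genes were high there too, at 4908 CPM over 11 genes, led by Myh4, Atp2a1 and Acta1, against 6.17 to 400.4 CPM in the controls that remain and 3.08 to 55.8 CPM in Stat5Adipoq libraries. Of these 0 were called by edgeR, although all 11 had an unadjusted p below 0.05. DESeq2 called 4 lower and gave no adjusted p for the others. The median log2 fold change of the muscle list was -5.584 with 10 libraries and -2.445 without control replicate 3, where edgeR called 0 of its genes.

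**Figure D3:**
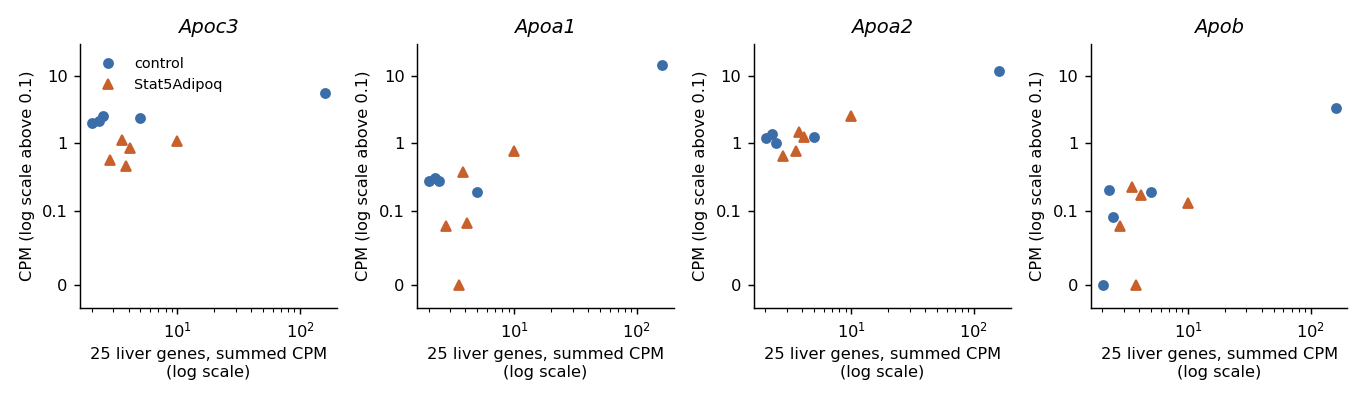
CPM of Apoc3, Apoa1, Apoa2 and Apob (y axis, logarithmic above 0.1 and linear below) against the summed CPM of 25 liver genes (x axis, logarithmic), 1 point per library, circles for control and triangles for Stat5Adipoq. Control replicate 3, in which each of the 25 liver genes was highest, stands at the right at 160.5 CPM of liver genes. The libraries below 10 CPM of liver genes are all those except control replicate 3. Among them the controls lie above the Stat5Adipoq libraries for Apoc3, which was picked for its fall. The part of liver RNA in the Apoc3 values was not tested.

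Levels can be set between genes only per length of transcript. Per kilobase of exon in the 4 controls without replicate 3, Apoc1 was at 429 ± 58.7 and Apoe at 419 ± 34.3 CPM per kb (SD, n = 4), followed by Apod at 4.90 ± 3.53, Clu at 4.23 ± 0.801, Apoc3 at 2.24 ± 0.240, Apoa2 at 2.23 ± 0.284, Apoa1 at 0.211 ± 0.0389 and Apob at 0.00869 ± 0.00682. Neighbours within the pairs Apoc1 and Apoe, Apod and Clu, and Apoc3 and Apoa2 differed by less than their spread. Taking the longest transcript for the length put Apoe (636 ± 52.0) above Apoc1 (600 ± 82.2), Clu (8.04 ± 1.52) above Apod (6.09 ± 4.39), and Apoc3 (3.20 ± 0.344) above Apoa2 (2.31 ± 0.295), the last pair without overlap. In Stat5Adipoq BAT, per kilobase of exon, Apoc3 at 0.799 ± 0.291 lay below Apoa2 at 2.499 ± 1.42 CPM per kb (SD, n = 5).

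The genes whose level across the 10 libraries, centred on its mean, was most like that of Apoc3 were sought among 10152 genes with at least 50 counts on average. By mean absolute difference in log2 CPM they included Fhl3 (0.231), Il18bp (0.262), Bhlhb9 (0.327) and Gnai1 (0.384), where the median gene was at 0.814. Their log2 fold changes lay between -1.56 for Fhl3 and -1.21 for Gnai1. Apoc3 was picked for its fall, and likeness to it was measured in the same 10 libraries. Falls in the genes nearest to it thus follow from the choice and are not separate results. Nearest to Apoe were Postn (0.0686), Hexim1 (0.0795) and Csf2rb (0.0799), with a median gene at 0.219. For Apod they were Gatm (0.287), Sfrp5 (0.316) and Igfbp6 (0.334), with a median gene at 0.929. For Apoc1 they were Sccpdh (0.0484), Rpn1 (0.0717) and Plod3 (0.0800), and for Clu they were Cept1 (0.0829), Kirrel (0.0887) and Fabp4 (0.0920).

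Of the genes within 100000 bp of Apoc3 and outside the set, 3 were tested and 0 called. Sik3 had a log2 fold change of -0.12 (edgeR, adjusted p = 0.408), Zpr1 of 0.01 and Bud13 of 0.09, and Apoa5, a further regulator of lipoprotein lipase in the cluster, had 0 to 5 counts per library. Around Apoe, 0 of the tested neighbours outside the set were called, with log2 fold changes of -0.20 for Relb, -0.11 for Clptm1, -0.09 for Pvrl2, -0.04 for Tomm40, -0.03 for Clasrp and 0.01 for Bcam. Apoc4 had 0 to 7 counts per library, the highest in control replicate 3.

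Other genes, of lipoprotein metabolism or only named as apolipoproteins, were taken from 5 lists. In these lists edgeR called 0 genes and DESeq2 called 2, Scarb1 and Lpl. In the order given here, 1, 2, 3, 2 and 2 genes had an unadjusted p below 0.05. Among 21 further genes named as apolipoproteins 6 were tested and 0 called, with a median log2 fold change of 0.08. The median was 0.04 without control replicate 3, where Apoh fell below the filter on low counts. Apol6 was at 0.32 (edgeR, adjusted p = 0.319), Apobr, a receptor of ApoB48, at 0.11, Apoo at 0.05 and Apool at 0.00. Among 15 lipoprotein receptors 12 were tested and 0 called, with a median of 0.01. Those with the most counts, Cd36, Lrp1, Sort1 and Vldlr, had log2 fold changes of 0.11, 0.09, -0.16 and -0.16. Scarb1, the receptor for high density lipoprotein, was at 95.8 ± 17.3 CPM in control and 72.5 ± 7.26 CPM in Stat5Adipoq BAT (SD, n = 5 each), a log2 fold change of -0.40 that did not pass the threshold (edgeR, adjusted p = 0.105). It was called lower without control replicate 3 (log2 fold change -0.50, edgeR adjusted p = 0.0081) and by DESeq2 (adjusted p = 0.0257).

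Of 13 lipases and their partners 12 were tested and 0 called, with a median of -0.10. Lpl, the lipase that ApoC2 activates and ApoC3 inhibits, was at 5012 ± 1295 CPM in control and 3390 ± 318 CPM in Stat5Adipoq BAT (SD, n = 5 each), with a log2 fold change of -0.56 that passed the threshold in DESeq2 (adjusted p = 0.0065) and not in edgeR (adjusted p = 0.0743). Lpl was at -0.43 without control replicate 3 (edgeR, adjusted p = 0.0888). Angptl4, an inhibitor of the lipase, was at 0.05, Sel1l, which is needed for its maturation, at -0.03, and Gpihbp1, which carries it across the endothelium, at -0.18. Of 12 genes for lipid loading, particle assembly and cholesterol efflux 11 were tested and 0 called (median -0.09), Abca1 and P4hb being at -0.20, Nr1h3 at -0.09 and Sar1b at -0.07. Of 14 genes known as regulators of hepatic Apoc3 10 were tested and 0 called (median -0.02, and 0.07 without control replicate 3), among them Ppara at 0.27 (edgeR, adjusted p = 0.243), Pparg at 0.19, Mlxipl at 0.17 and Nr1d1 at 0.05. Hnf4a, the main activator of Apoc3 in liver, had 0 to 6 counts per library, the highest in control replicate 3.

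**Figure D4:**
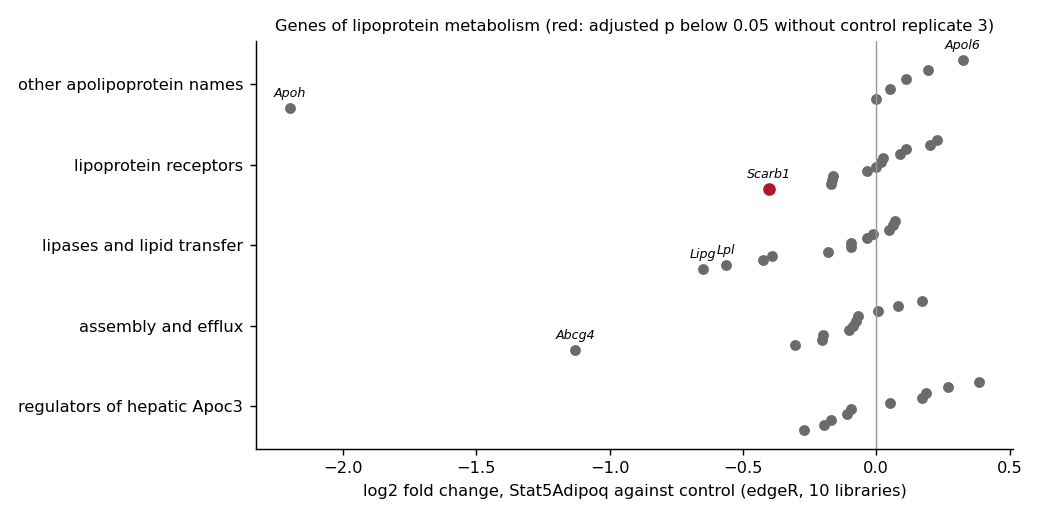
Log2 fold change of Stat5Adipoq against control with 10 libraries (x axis), 1 point per gene. The tested genes are from 5 lists (y axis) of genes of lipoprotein metabolism or only named as apolipoproteins. No gene passed the threshold with 10 libraries, and Scarb1, in red at -0.40, passed it without control replicate 3. Apoh at -2.20 is a liver gene with 0 to 29 counts per library, and without control replicate 3 it fell below the filter on low counts.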

How the data were processed

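BAT RNA of 10 mice was sequenced with single reads of 50 bp from a stranded mRNA kit. The authors aligned reads to GRCm38 with STAR 2.5.0b and counted them over exons with featureCounts 1.5.0-p1, and deposited raw counts per Entrez gene, with no normalization. The strand setting of counting is not given in the sources used here, so overlapping and antisense genes are uncertain. The deposited comparison tables hold the authors' own DESeq2 1.16.1 fold changes and p-values and were used for gene symbols alone.

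Groups came from the sample titles. From the counts, genes with a size factor normalized row sum above 45 were compared with edgeR 4.0.16 in R 4.3.3 (quasi-likelihood F test, TMM, no covariate, Benjamini-Hochberg over all 13568 genes, threshold 0.05). Alternatives were DESeq2 1.42.0, limma-voom (limma 3.58.1), other scalings and filters, a replicate block, and each library left out. A fit without control replicate 3 that kept all 13568 genes was added after the data were seen. Scripts were tested on simulated data. The depth was 8488129 to 19514904 counts per library, at which a gene with few counts, such as Apoa1 with 0 to 12 outside control replicate 3, has wide limits. Positions and overlaps are those of GENCODE vM21 and RefSeq for GRCm38. Libraries were not duplicates (lowest chi-square per degree of freedom between any pair 5.31).

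The members and gene lists were chosen with earlier results of these data known. Named genes are all 10 members, called genes of each list and the 4 (markers: 3) with the most counts, neighbours within 100000 bp of Apoc3 and Apoe, and the 5 genes nearest Apoc3 and 3 nearest other members with at least 50 counts on average. Scarb1, Scn7a, Apoh, Lipg, Abcg4 and Hnf4a were named after their values were seen. Some genes that the rule names are not reported here.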

Additional observations from a re-analysis of the deposited data

Results flagged for a closer look

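In 30 groups of 5 libraries examined for a single value far from the others, 9 held one. Chance would give about 1 in 20, or 1.5, for independent groups, but these groups share libraries, so this is not a test. Control replicate 3 was the high library in 5 of the 9. Apoc3 was at 5.65 CPM there, against 2.01 to 2.54 CPM in the other controls. Apoa1 was at 14.6 CPM against 0.192 to 0.303 CPM, Apoa2 at 11.8 CPM against 0.998 to 1.37 CPM, and Apob at 3.37 CPM against 0 to 0.202 CPM. The 11 skeletal muscle genes summed to 4908 CPM in this library, the remaining controls ranging from 6.17 to 400.4 CPM. The part of liver or muscle RNA in these values was not tested.

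The other cases were sums of marker genes. Stat5Adipoq replicate 1 had 3639 CPM of fibroblast genes, against 2102 to 2528 CPM in the other Stat5Adipoq libraries, and 104 CPM over the full list of 28 liver markers, against 56.0 to 65.7 CPM. Over the 25 liver genes without Cyp2e1, Kng1 and Itih4 it did not stand apart, at 4.11 CPM against 2.80 to 9.94 CPM. Control replicate 4 had the highest macrophage sum, 257 CPM, the remaining controls ranging from 199 to 213 CPM. This sum was lowest, at 163 CPM, in Stat5Adipoq replicate 3, the remaining Stat5Adipoq libraries ranging from 203 to 214 CPM.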

How the results depend on the processing

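Of 140 log2 fold changes of members under 7 other settings, 10 libraries left out in turn and the added fit, 135 kept direction and, where tested, side of the threshold. Limma-voom gave smaller values for Apoa1 (-1.39), Apob (-0.78) and Apoa2 (-0.43) than the -3.29, -2.42 and -1.19 of edgeR. Apoa2 changed sign without control replicate 3 (0.19, and 0.19 in the fit that kept all genes; -1.60 to 0.19 over the libraries left out), as did Apoa1 in the latter (0.12), where Apob was at -0.16. Apoe became a call in both (-0.37), so 1 member was called lower in place of 0. Apoc3 lay between -1.97 and -1.46 over the libraries left out and between -1.84 and -1.68 under the other settings. DESeq2 called 334 genes lower and 326 higher in place of 178 and 190. Over the libraries left out, 86 to 224 genes were called lower and 96 to 219 higher, and 0 to 1 of the members were called lower. Genotypes share replicate numbers, but these did not pair the libraries (correlations of deviations between same-numbered libraries from -0.23 to 0.09). With the replicate block 141 genes were called lower and 132 higher, Apoe was at -0.28 and Apoc3 at -1.75, and 0 of the members were called. Apob and Apoa1 have no value without control replicate 3 under the usual filter. With few counts in Apoa1, Apob, Apoc2 and Apoa4, depth limits what can be seen of them.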
